A study of Drosophila melanogaster with 2 samples.

Results

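The genes of the cytoplasmic ribosome were examined for binding of Sob, a zinc-finger transcription factor of the odd-skipped family, in Drosophila melanogaster embryos. The members were the protein-coding genes whose symbol begins with RpL or RpS followed by a digit or by P, which gave 92 of the 13945 protein-coding genes on the 6 main arms. Of these, 47 encode proteins of the large subunit, 37 encode proteins of the small subunit, 3 encode the stalk proteins RpLP0, RpLP1 and RpLP2, and 5 are paralogs whose symbol ends in -like. The samples were whole embryos aged 0 to 24 h that carried a Sob protein tagged with the fluorescent protein eGFP, and chromatin was precipitated with an antibody against GFP. There was 1 group with 2 biological replicates and no other genotype, stage or treatment, so all values describe the tagged line and a mixture of every cell type of the embryo. The data are peak lists on the dm6 build. A gene was counted as marked if any of its transcription start sites (TSSs) had a peak summit no farther than 1000 bp away, and its signal is that of its strongest such peak. The signal is the authors' value per peak in units with no stated scale. The main list was made from both replicates together, and each replicate also has its own shorter list, in which signals are lower.

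Ribosomal proteins are made in near-equal amounts from many single genes scattered over the genome, and in flies the loss of 1 copy of many of them slows development and thins the bristles, the Minute phenotype. Their promoters are among the most active of the cell. In Drosophila many of them start within a run of pyrimidines called the TCT initiator, which is read by a transcription machinery that uses the TBP-related factor Trf2 in place of TBP. Promoters of housekeeping genes in this species often hold the DNA replication-related element (DRE), bound by Dref, or Motif 1, bound by M1BP.

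The start regions behind the main results are shown first, from 180 bases before to 19 bases after the TSS of the canonical transcript, with the TSS base counted as 0, from RefSeq's copy of Release 6 (dm6). All are printed along the gene's own strand. Capitals mark a TCT initiator core (CTTTC or CTTTT) that starts within 10 bp of the TSS, a DRE (TATCGATA) or a Motif 1 core (GGTCACAC, printed as GTGTGACC where it lies on the other strand). The first 4 are the members of highest signal whose sequence is shown, RpL7 (chr2L:10200824-10201023, plus strand), RpS27 (chr3R:25247495-25247694, minus), RpL23A (chr3L:1668635-1668834, minus) and RpL14 (chr3L:8600826-8601025, plus).
RpL7: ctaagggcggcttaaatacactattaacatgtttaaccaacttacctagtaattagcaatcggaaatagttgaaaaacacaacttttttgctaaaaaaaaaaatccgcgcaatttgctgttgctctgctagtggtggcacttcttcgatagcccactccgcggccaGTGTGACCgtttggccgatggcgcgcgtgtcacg
RpS27: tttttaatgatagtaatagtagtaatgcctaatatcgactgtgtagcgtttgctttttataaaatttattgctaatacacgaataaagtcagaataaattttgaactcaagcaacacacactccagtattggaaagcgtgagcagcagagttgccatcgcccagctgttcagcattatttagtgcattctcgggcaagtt
RpL23A: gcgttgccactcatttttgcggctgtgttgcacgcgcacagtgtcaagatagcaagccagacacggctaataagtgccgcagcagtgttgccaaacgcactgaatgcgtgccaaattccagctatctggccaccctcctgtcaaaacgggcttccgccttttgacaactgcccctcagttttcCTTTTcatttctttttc
RpL14: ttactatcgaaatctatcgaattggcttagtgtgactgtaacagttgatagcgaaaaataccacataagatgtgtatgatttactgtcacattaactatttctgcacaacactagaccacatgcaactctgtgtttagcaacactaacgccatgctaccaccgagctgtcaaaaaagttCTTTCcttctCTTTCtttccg
RpS14b (chrX:7934718-7934917, plus) and RpS14a (chrX:7933562-7933761, plus) are neighbouring copies of the gene for RpS14, of which the first was marked and the second was not.
RpS14b: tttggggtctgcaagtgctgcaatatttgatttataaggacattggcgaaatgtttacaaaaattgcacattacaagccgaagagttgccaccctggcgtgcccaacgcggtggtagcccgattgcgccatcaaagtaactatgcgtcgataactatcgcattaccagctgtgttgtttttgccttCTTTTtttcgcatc
RpS14a: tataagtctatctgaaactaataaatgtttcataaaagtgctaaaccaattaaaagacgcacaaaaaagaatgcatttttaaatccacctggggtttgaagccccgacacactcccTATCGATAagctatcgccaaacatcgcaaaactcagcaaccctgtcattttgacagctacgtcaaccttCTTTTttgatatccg
The last pair was chosen after the values were seen. RpS25 (chr3R:11216268-11216467, minus) has a DRE beside its summit, and RpL13 (chr2L:9967150-9967349, plus) shares its start region with Dref.
RpS25: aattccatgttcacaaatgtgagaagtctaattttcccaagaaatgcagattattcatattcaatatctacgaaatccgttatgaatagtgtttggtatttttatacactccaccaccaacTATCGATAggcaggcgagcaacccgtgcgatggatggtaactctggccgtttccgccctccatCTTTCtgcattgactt
RpL13: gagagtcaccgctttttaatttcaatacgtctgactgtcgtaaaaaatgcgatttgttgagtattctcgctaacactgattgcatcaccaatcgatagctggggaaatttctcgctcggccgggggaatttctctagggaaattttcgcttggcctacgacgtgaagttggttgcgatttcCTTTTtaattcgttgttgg
The 4 strongest starts share no marked word. RpL7 has a Motif 1 core at -14 to -7, and RpL14 has TCT cores at -1 to 3 and at 9 to 13. RpL23A has its TCT core at 3 to 7, and RpS27 has none of the marked words.

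Sob peaks lay at most ribosomal protein genes. In the main list 73 of the 92 members were marked, or 79.3% (95% Wilson interval 70.0 to 86.4, counting error only), against 32.9% of all protein-coding genes. In the smaller list that the authors named conservative, 68 members were marked, or 73.9%, against 26.2% of all genes. Replicate 1's own list marked 66 members, or 71.7%, against 24.3% of all genes. Replicate 2's own list marked 69, or 75%, against 24.4%. In both own lists 61 members, or 66.3%, were marked, against 19% of all genes. The share of marked members was thus above that of all genes in each of these 4 lists.

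By median, the peaks at marked members had higher signals than those at other marked genes. The median was 282 (quartiles 173 and 412, range 78.4 to 1204), against 168 for the other marked protein-coding genes. Of the 73 marked members, 56 lay above the median of all marked genes, 34 above the upper quartile and 5 below the lower quartile. The highest member held place 64 in the main list. By role, 36 of the 47 large-subunit genes were marked with a median signal of 294, and 33 of the 37 small-subunit genes with a median of 219. All 3 stalk genes were marked, but only 1 of the 5 -like paralogs was.

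**Figure D1:**
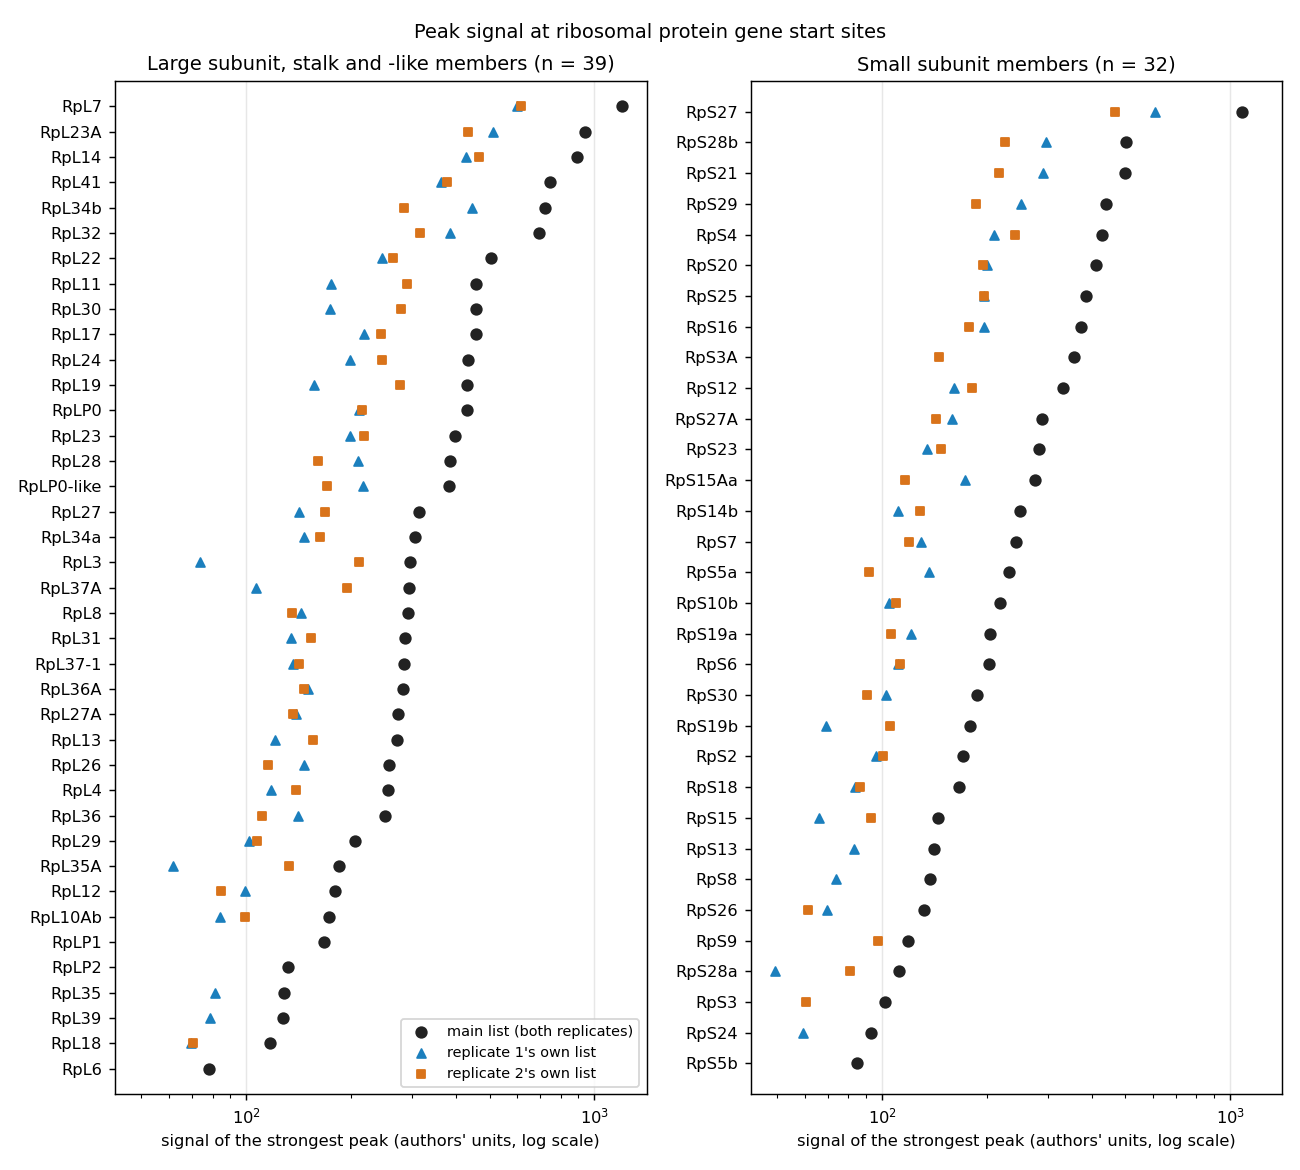
Signal of the strongest peak within 1000 bp of a TSS (x axis, log scale) for 71 of the 73 marked members, with large-subunit, stalk and -like members on the left and small-subunit members on the right. Black circles are the main list, blue triangles replicate 1's own list and orange squares replicate 2's own list; a missing symbol means no peak in that list. RpL7 at 1204 and RpS27 at 1084 head the columns, and most members have both replicates' symbols close together.

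Among large-subunit genes the highest signal was at RpL7 (FBgn0005593), with 600.1 in replicate 1 and 617 in replicate 2 and 1204 in the main list. Its peak (chr2L:10200878-10201184) has its summit 32 bp downstream of the TSS, in an untranslated exon. RpL23A (FBgn0026372), a protein beside the exit tunnel where nascent chains emerge, had 511 in replicate 1, 434 in replicate 2 and 942 in the main list. Both replicates placed these genes near the top of the members. RpL14 (FBgn0017579) had 428 and 467 in replicates 1 and 2 and 895 in the main list. RpL41 (FBgn0066084), which encodes a very short peptide of the large subunit, had 362 and 377 and a main-list signal of 748. RpL32, widely used as a reference transcript under its older name rp49, had 386 and 317 and a main-list signal of 693. These 3 genes had summits 49 to 90 bp upstream of a TSS, at -49, -90 and -83.

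RpL34b had 445 in replicate 1, 284 in replicate 2 and 722 in the main list. RpL22, with a main-list signal of 505, had 245 in replicate 1 and 265 in replicate 2. RpL11 and RpL30 each had a main-list signal of 457 after rounding. RpL11, which joins RpL5 and the 5S RNA before it enters the large subunit, had 175 in replicate 1 and 289 in replicate 2. RpL30 had 174 and 278. At both genes replicate 2 was the higher, while RpL34b was higher in replicate 1.

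Small-subunit genes were headed by RpS27 (FBgn0039300), with 607 in replicate 1, 468 in replicate 2 and 1084 in the main list. Its summit lay 13 bp upstream of the TSS (peak chr3R:25247375-25247744). After it there was a gap to RpS28b, with 296, 225 and 501 in replicate 1, replicate 2 and the main list, and RpS21, with 289.9, 217 and 497. All 3 were higher in replicate 1. RpS6, the target of S6 kinase downstream of TOR, had 111 and 112 in replicates 1 and 2 and 203 in the main list (peak chrX:7901118-7901497). The same peak lies within 1000 bp of bys, a gene of small-subunit assembly, which therefore carries the same values.

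The stalk of the large subunit recruits elongation factors. Its base, RpLP0, had 211 in replicate 1, 214 in replicate 2 and 429.8 in the main list. The other stalk proteins were weaker, RpLP1 with a main-list signal of 167 and RpLP2 with 132, and neither was in a replicate's own list. In the longer ranked lists, which also hold peaks below the threshold, RpLP1 had 52.1 in replicate 1 and 114.6 in replicate 2, and RpLP2 had 62.9 and 52.4. Of the genes that encode a ribosomal protein fused to ubiquitin, RpS27A was marked, with 159, 143 and 288 in replicate 1, replicate 2 and the main list. The other, RpL40, had no thresholded peak, and its strongest ranked peak had a signal of 46.2.

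The 5 lowest marked members were RpL6 at 78.4, RpS5b at 84.8, RpS24 at 92.7, RpS3 at 102 and RpS28a at 112. RpL6 and RpS5b were in neither replicate's own list. Their summits, at -432 and -614 bp, also lay far from the TSS for members. RpS3, a protein of the mRNA entry site, was the only marked member with its summit in a coding exon. RpS24 was in replicate 1's own list alone and RpS3 in replicate 2's alone.

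Summits at ribosomal protein genes sat close to the TSS. The median summit position of the 73 members was -34 bp (negative is upstream; quartiles -80 and 2), against -106 bp (quartiles -232 and -24) for the other 4516 marked genes. Of the members, 61 of 73 (83.6%) had the summit within 100 bp of a TSS, against 1734 of 4516 (38.4%) of the other marked genes. All values of the other genes are per gene, here and for the signals above, so a peak shared by neighbours counts for each. The other genes hold 3150 distinct summits beyond those of members, while the 73 members hold 73. Some other genes, such as Dref, carry a member's own peak. Upstream summits made up 72.6% in members and 79.9% in the others. Peaks at members were also narrower, with a median width of 295 bp, against 380 bp in the other genes. The median width over the whole main list was also 380 bp, and many member peaks had exactly this width. Among them were those of RpL6, RpS5b and RpS24, the lowest by signal. Whether the narrower width goes with the higher signal of members was not tested. Where the 73 summits fell, 46 were outside the gene, 23 in an untranslated exon, 3 in an intron (RpL26, RpL35 and RpS9) and 1 in a coding exon. In 22 members (30.1%) more than 1 peak lay within 1000 bp, against 22.1% of the other marked genes.

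**Figure D2:**
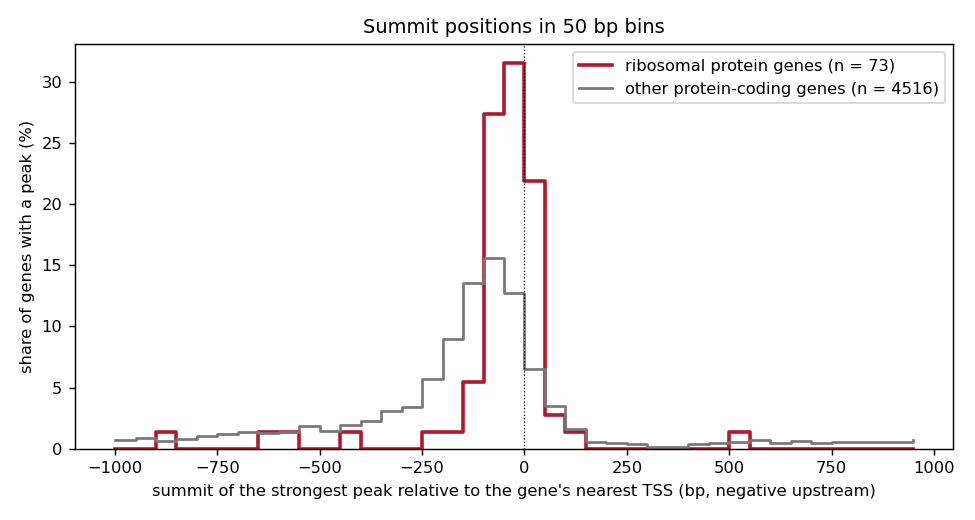
Share of marked genes (y axis, %) whose strongest peak has its summit in each 50 bp bin around the nearest TSS of the gene (x axis, bp, negative upstream). The red line is the 73 ribosomal protein genes, with a median of -34 bp, and the grey line is the 4516 other marked protein-coding genes, with a median of -106 bp.

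Near the 1000 bp limit, the farthest summits still counted were those of RpS19b at -879, RpS5b at -614 and RpS15 at -583 bp. RpS15 also had a main-list summit 55 bp from its TSS, with a signal of 140.4, against 144.6 at the farther one. The nearest summits not counted were 1093 bp from RpS14a, with a signal of 249, and 1319 bp from RpL24-like, with a signal of 15.3. The first of these is the peak counted for RpS14b, at -63 bp from the TSS of that gene. A summit 1751 bp from RpS15Ab (211) was likewise not counted.

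Many ribosomal protein genes share their start region with a neighbour, and a peak cannot then be given to 1 gene. A protein-coding gene on the opposite strand started within 1000 bp upstream of 55 members, of which 46 (83.6%) were marked, with a median signal of 279. Of the other 37 members, 27 (73.0%) were marked, and their median signal was 282. The medians of members with and without such a neighbour lay close together. For 10 of the 73 marked members the TSS of another gene was nearer to the summit than their own. Among these were RpL13, whose summit lay 50 bp from its own TSS and 34 bp from that of Dref, RpS20 beside CG17271 and RpS28a beside Mgat2. The RpL13 peak had 121 in replicate 1, 155 in replicate 2 and 271 in the main list, and these are also the values of Dref.

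The replicates ordered the members alike. In the ranked lists, which reach below the threshold, 72 of the 73 marked members had a peak in each replicate. Across these genes Spearman's rho was 0.87 and Pearson's r of log2 signals was 0.87, against 0.74 and 0.80 across 4375 other marked genes. These are descriptions across genes, which are not independent replicates. They use the strongest peak of each gene, which was not always at the same place in both replicates. The log2 ratio of replicate 1 to replicate 2 had a median of -0.04 in members and 0.08 in the others. It ran from -1.52 at RpL3, a protein of the peptidyl transferase centre, with 73.4 in replicate 1 and 211 in replicate 2, to 0.79 at RpL39, with 78.8 and 45.6. In the other genes the central 95% of ratios ran from -1.50 to 1.15.

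**Figure D3:**
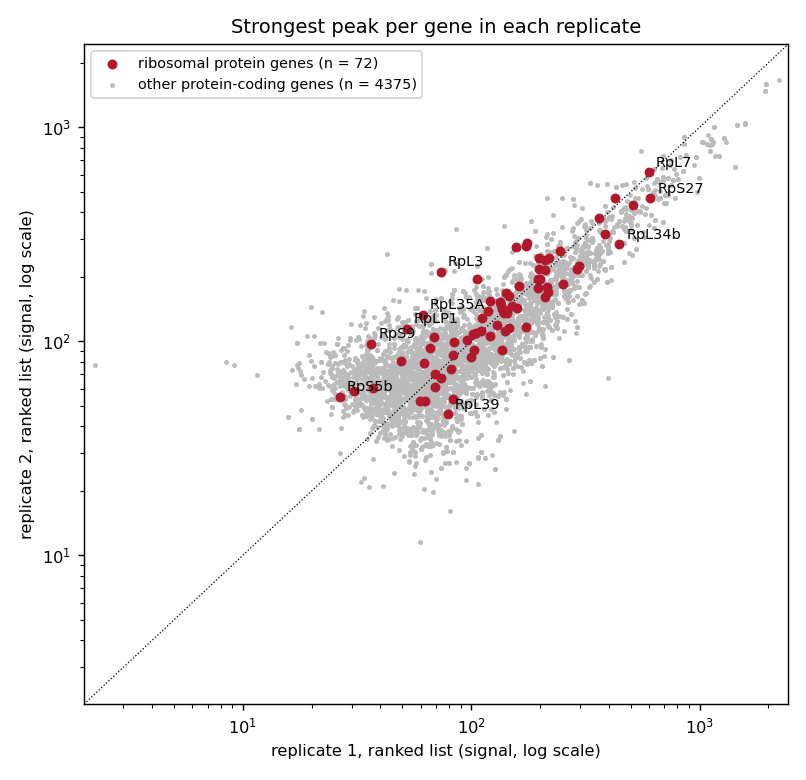
Signal of the strongest ranked peak per gene in replicate 1 (x axis) and replicate 2 (y axis), both on log scales, for the 72 marked members with a peak in both (red) and 4375 other marked genes (grey). The dotted line is equality; RpL7 and RpS27 lie at the upper end of the members and RpL3 has the largest offset toward replicate 2.

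Of the 73 marked members, 60 were in both own lists, 5 in replicate 1's alone, 4 in replicate 2's alone and 4 in neither. Being in both needed only a summit within 1000 bp in each list, which could belong to different peaks. The strongest summits in replicates 1 and 2 lay at -97 and 530 bp at RpS28a, -562 and 56 bp at RpS15, and -415 and 14 bp at RpL18. The member with no ranked peak in replicate 1 was RpS3A, the only member on the small chromosome 4. It had 146 in replicate 2's own list and 357 in the main list. Of the lists made from 1 replicate, only those of replicate 2 held a peak for it. What replicate 1 added to the main-list call cannot be told from these lists. On the other arms 13 of 19 members were marked on 2L, 16 of 21 on 2R, 12 of 14 on 3L, 19 of 23 on 3R and 12 of 14 on X. Of all protein-coding genes, 31.4% were marked on 2L, 33.5% on 2R, 34.4% on 3L, 33.2% on 3R and 32.4% on X. On chromosome 4 the share of all genes was 11.25%.

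The 19 unmarked members were of several kinds. RpL13A, a large-subunit protein, had a ranked peak 61 bp from its TSS (chr3R:5624296-5624523) with signals of 185, 205 and 397 in replicate 1, replicate 2 and the ranked list of both. Its score was 1000, above the lowest score of 830 in the thresholded list, yet it was not in any thresholded list. It is 1 of 187 ranked peaks at or above that score that the main list leaves out, and the thresholded lists drew on a region file that was not used here. RpL7A was in both own lists, with 66.9 and 67.7, and in the conservative list with 122, but its score of 783 fell below the threshold of the main list. RpL9 had a peak in replicate 2's own list, with a signal of 167, and no ranked peak within 1000 bp in replicate 1. RpL5 had 72.7 in replicate 2's own list and likewise none in replicate 1. These 4 genes therefore had a peak at the TSS in at least 1 replicate.

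Lower values were found at RpL24-like, with 65.6 in replicate 2's own list, and at RpS28-like, with 64.8. Among those without a peak in any thresholded list were RpS15Ab, with a ranked signal of 51.5, RpS14a with 48.4, RpS10a with 46.8, RpL40 with 46.2, RpL7-like with 45.3 and RpL22-like with 38.5. RpL10Aa, RpL37-2 and RpL15 had a ranked peak in replicate 1 alone, with 27.3, 26.0 and 17.0. RpL10, RpL21 and RpL38 had no peak within 1000 bp in any ranked list used here. In the ranked list of both replicates, all these values are below the lowest marked member at 78.4, apart from those of RpL13A, RpL7A, RpS28-like (104) and RpL24-like (88.9).

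Several of the genes with few or no ranked peaks lie at the inner ends of the arms, next to the repeat-rich heterochromatin around the centromere. The members RpL21 and RpL5 on 2L, RpL38 on 2R, and RpL10 and RpL15 on 3L start beyond the innermost main-list peak of their arm. They are among 120 protein-coding genes that start beyond the last peak of arms 2L, 2R, 3L, 3R or X, of which 1 was marked, through a peak that ends just short of its TSS. That point was set by the main list itself, so genes beyond it are almost all unmarked by definition. The count of marked genes there is therefore not a result. A total of 77, 172 and 345 ranked peaks lay beyond that point on 2L, 2R and 3L. Repeat-masked sequence within 10 kb of the TSS made up a median of 10.5% in marked members and 14.0% in unmarked ones, and 12.7% in all genes. Of the 7 members above 25%, the marked ones were RpS30 and RpS3A, and RpL10, RpL10Aa, RpL15, RpL21 and RpL38 were unmarked. Below 25%, 71 of 85 members (83.5%) were marked, against 33.5% of the other genes. Above 25%, 17.8% of 796 other genes were marked. The part of repeat content in the missing peaks was not tested.

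In all, 13 pairs of paralogs could be compared. They were paired by symbol, which does not show that both genes of a pair encode the same ribosomal protein. Some ribosomal proteins of the fly have a widely used copy and a copy used mainly in the germ line. Which pairs are of this kind was not examined. At least 1 copy was marked in each of the 13 pairs; both copies were marked in 5 and 1 copy in 8. Of the 26 members of a pair 18 were marked, against 55 of the 66 members in no pair. In the pairs below, the copy named first had the higher signal, and signals are from the ranked list of both replicates, which gives a marked gene its main-list value.

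**Figure D4:**
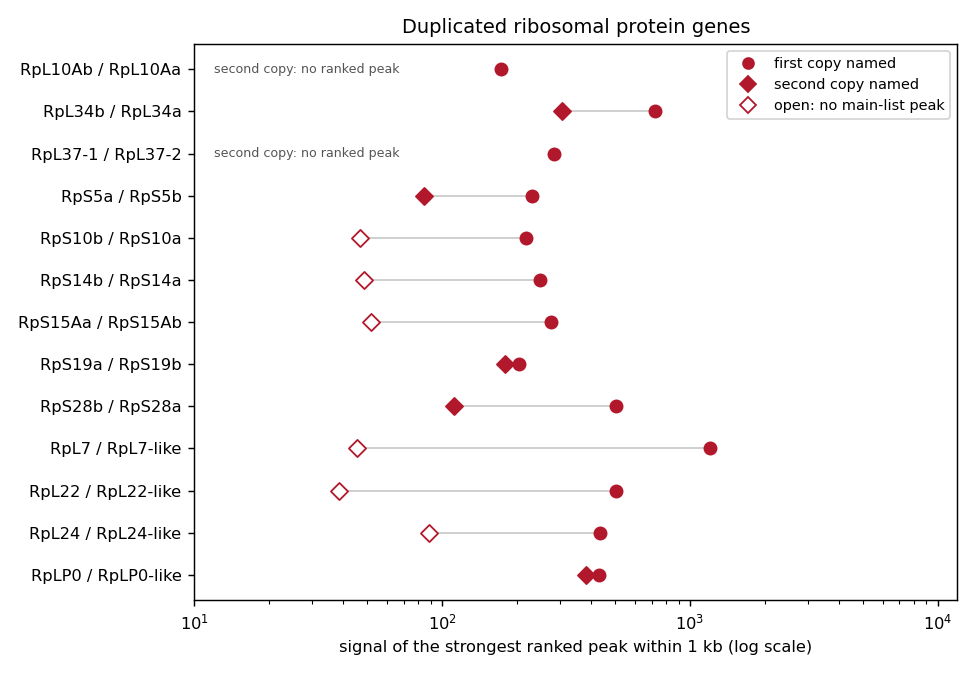
Signal of the strongest ranked peak within 1000 bp of a TSS (x axis, log scale) in each of 13 pairs of paralogs (y axis). Circles are the copy named first, diamonds the copy named second, and open symbols have no peak in the main list; a note stands where the second copy has no ranked peak in the list of both replicates.

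Among pairs with both copies marked, RpLP0 had 429.8 and RpLP0-like 382, and RpS19a had 204 and RpS19b 179. These were the closest pairs by signal, but the peak of the second copy cannot be given to it alone in either. The RpLP0-like summit lay 40 bp from its own TSS and 47 bp from that of 14-3-3zeta. The RpS19b summit lay nearer to the TSS of CG5854, at 497 bp, than to its own. RpL34b had 722 and RpL34a 306, RpS5a had 231 and RpS5b 84.8, and RpS28b had 501 and RpS28a 112. The summits of RpS19b, RpS5b and RpS28a lay 879, 614 and 526 bp from the TSS, whereas those of RpS19a, RpS5a and RpS28b lay within 55 bp. Nearness to the TSS was thus a feature of the stronger copy in these 3 pairs.

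In the pairs with 1 marked copy, RpL7 had 1204 and RpL7-like 45.3, RpL22 had 505 and RpL22-like 38.5, and RpL24 had 434 and RpL24-like 88.9. RpS15Aa had 276 and RpS15Ab 51.5, RpS14b had 249 and RpS14a 48.4, and RpS10b had 219 and RpS10a 46.8. RpL37-1 had 284 and RpL10Ab had 173, while RpL37-2 and RpL10Aa had no ranked peak in the list of both replicates. The replicates' own lists marked the same number of copies as the main list in every pair except RpS5a and RpS5b, where each own list marked 1, and RpL24 and RpL24-like, where replicate 2 marked both. In the RpS14 pair, the printed starts show a TCT core at 6 to 10 in RpS14b and at 5 to 9 in RpS14a, and the DRE at -64 to -57 is in the unmarked copy.

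Some sequence features that the choice of genes did not use were frequent at ribosomal protein genes. A TCT core started within 5 bp of the TSS in 41 of 92 members (44.6%; interval 34.8 to 54.7), against 3.25% of 13852 other protein-coding genes. Within 10 bp the shares were 64.1% in members and 6.42% in the others. A DRE lay within 50 bp of the summit in 15 of 73 marked members (20.5%; interval 12.9 to 31.2), against 4.54% of 3150 summits of other marked genes. In the promoter from 250 bp before to 50 bp after the TSS, a DRE was found in 28 of 92 members (30.4%) and in 8.79% of the others. The Motif 1 core lay at 7 of 73 member summits (9.59%; interval 4.72 to 18.5), against 2.67%. It was in 13 of 92 member promoters (14.1%; interval 8.45 to 22.7), against 7.49%. At the replicates' own summits the Motif 1 share in members was 7.58% in replicate 1 and 5.80% in replicate 2, and the DRE share was 24.2% in replicate 1 and 13.0% in replicate 2. Shares of other genes at own summits are not given here. Among the Motif 1 summits were those of RpL7, RpL30, RpLP0, RpS23, RpL27A and RpLP1. No summit held both a DRE and a Motif 1 core, and 22 of the 73 held 1 of them.

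Within 50 bp of the summit, other words were at or below the share in other genes. The odd-skipped family core CAGTAGC was at 0 of 73 member summits, which allows a share of up to 4.11% (3 counts of 73, counting error only), against 0.79% of other summits. Only the promoter of RpL8 held it among the 92 members, against 2.34% of the other promoters. The E-box CAGCTG lay at 3 member summits (RpS16, RpS21 and RpS27; 4.11%), against 6.16%. The TATA box TATAAA lay at 6 (8.22%), against 15.7%, and was as frequent in member promoters as in the others, at 45.7% and 45.3%. Its lower share at summits depended on the window, with 8.22% against 7.52% within 25 bp and 26.0% against 28.3% within 100 bp. The E-box share within 25 bp was 2.74%, against 2.67%. The GAGA word GAGAGAGA was at no member summit or promoter, against 1.05% of other summits and 3.22% of other promoters. Except for the TCT core, words were counted on both strands, and none of these words contains another. A match of letters is a description and not a site. Of G and C, the 101 bases around a summit held 44.6% ± 8.74 in members (SD over 73 summits) and 39.4% ± 11.3 in the others (SD over 3150 summits).

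**Figure D5:**
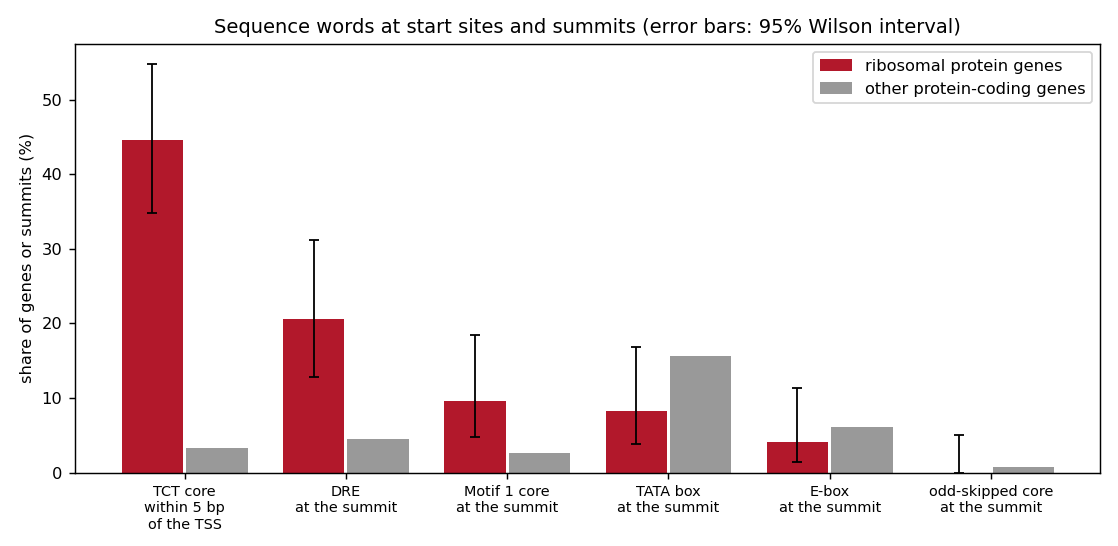
Share (y axis, %) of ribosomal protein genes (red) and of other protein-coding genes (grey) with each word. The TCT core is counted at the TSS of all 92 members and 13852 other genes, and the others within 50 bp of the summit of 73 members and at 3150 other summits; error bars are 95% Wilson intervals for members. The TCT core reaches 44.6% and the DRE 20.5% in members.

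Within the members, marked and unmarked genes were compared by these features, without a test. Of the members with a TCT core within 5 bp, 32 of 41 (78.0%) were marked, with a median signal of 264, against 41 of 51 (80.4%) with a median of 284 without it. With a DRE in the promoter 24 of 28 members (85.7%) were marked, against 49 of 64 (76.6%) without it. With a Motif 1 core there 12 of 13 (92.3%) were marked, against 61 of 79 (77.2%). Marked members with a DRE at the summit had a median signal of 314 (range 141 to 748), and those without it had 264 (range 78.4 to 1204). The range with a DRE lay inside the range without it, and the 4 strongest members were without it. The strongest summits with a DRE were those of RpL41 at 748, RpS29 at 441 and RpL19 at 432. RpS25 (FBgn0086472), whose DRE stands at -59 to -52 in the printed start, had 196 in each replicate and 386 in the main list.

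Genes that work with the ribosome were examined beside those of its own proteins. From a list of 38 translation factors, assembly factors and regulators, 25 (65.8%) were marked, with a median signal of 254 and 19 in both own lists. Their median summit position was -105 bp, and 11 of the 25 (44%) had the summit within 100 bp of a TSS. Among these 11 were Rack1 at -3, sta at -19, Nacalpha at 3 and eEF1gamma at -39 bp. The strongest peaks of bys and Dref are those also counted for RpS6 and RpL13. Among the ribosomal protein genes 79.3% were marked, and 32.9% among all genes. The highest was eIF6, which keeps free large subunits from joining small ones, with 1129 in replicate 1, 838 in replicate 2 and 1951 in the main list. Next was REPTOR, a transcription factor held in check by TORC1, with 588, 533 and 1141. Elongation factors varied, with main-list signals of 674 at eEF1gamma and 393 at eEF1alpha1, while eEF1alpha2, eEF1beta and eEF1delta had no thresholded peak. The nucleolar GTPase gene Ns2 had 599, the translational repressor gene brat 578, and Nacalpha, of the complex that binds nascent chains, 354. The summit counted for brat lay far from its TSS, at -708 bp. The ribosomal scaffold protein gene Rack1 had 216, 264 and 480 in replicate 1, replicate 2 and the main list, and sta, which encodes a small-subunit protein outside the symbol rule, had 81.0, 155 and 231. Genes of RNA polymerase I (Polr1A, Polr1B and Polr1C), its factor Tif-IA, and Myc had no thresholded peak.

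The proteins of the mitochondrial ribosome, which are also encoded in the nucleus, make the closest comparison. Of the 92 cytoplasmic genes 79.3% were marked, with a median signal of 282 and a median summit position of -34 bp. Of the 73 mitochondrial genes 38 (52.1%) were marked, with a median signal of 154 and a median summit position of -139 bp. Summits lay within 100 bp of the TSS in 83.6% of marked cytoplasmic and 39.5% of marked mitochondrial genes. Both own lists held 61 of 92 cytoplasmic and 24 of 73 mitochondrial genes. The difference between these sets was not tested.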

How the data were processed

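Sob-eGFP ChIP-seq peaks of 2 biological replicates (embryos of 0 to 24 h, chromatin sonicated to 200 to 800 bp) were used as deposited on dm6. Per the deposited file lists, each thresholded and ranked list compares peaks by the irreproducible discovery rate (IDR), was made from the alignments of 1 or both replicates and a control, and, if thresholded, drew on a region file. As for the aligner and the peak caller, their names and versions were not given in the sources used here. The deposited signal is the caller's value per peak, with no stated scale. The deposited score is the IDR rescaled to end at 1000, at least 830 in each thresholded list. The deposited −log10 value in ranked lists is that of the global IDR. No read counts were given, so depth is unknown.

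Gene starts were read from Ensembl 115 (BDGP6 annotation, version 6.54). Sequence and soft-masking were read from RefSeq's Release 6, which shares dm6 coordinates. Symbols with -like are members by the symbol rule. A summit counted within 1000 bp of any TSS, and the strongest peak gave a gene's values. Words were counted within 50 bp of each summit. The 1 gene without a canonical transcript was left out of promoter counts. Shares carry 95% Wilson intervals. No test was made, since there is 1 group and the members and lists were chosen with earlier results of these data known. Alternatives were other lists, windows of 500 and 2000 bp, the stronger 50% of peaks, coding TSSs and narrower or wider word windows.

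Values are given for the 12 members of highest and 5 of lowest signal, unmarked members (1 is not reported here), paralog pairs, stalk genes, RpS6, RpL40 and RpS27A, and from the list of 38 genes for the 8 highest, sta and Rack1; other genes were named after their values were seen. Counting was checked on simulated data. Python 3.11.15, pandas 2.3.3, numpy 2.4.6 and scipy 1.17.1 were used.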

Additional observations from a re-analysis of the deposited data

How the results depend on the processing

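The share of members with a peak was 79.3% in the main list. It was 73.9% in the conservative list, 67.4% with the stronger 50% of peaks, 70.7% where no other gene's TSS was nearer, 82.8% without the -like members, 76.1% within 500 bp and 83.7% within 2000 bp, and 71.7% to 75% from 1 replicate's own list. All genes had 26.2% in the conservative list, 21.2% with the stronger 50%, 29.0% within 500 bp and 39.2% within 2000 bp. For the setting where no other gene's TSS was nearer, the share of all genes is not given here. The 70.7% therefore has no comparison and cannot be set against the 32.9% of all genes. The median signal of 282 was 293 with the stronger peaks, 272 within 2000 bp, and 141 to 146 in 1 replicate's own list, where all marked genes had 105 to 116. The share in both own lists, 66.3%, was 42.4% where both own peaks had to overlap the main-list peak by 50%, 72.8% within 2000 bp and 69.0% without the -like members. Shares of all genes are not given for the overlap and 2000 bp settings. The share of summits with a DRE, 20.5%, was 9.59% within 25 bp, against 2.51% in the others, 27.4% within 100 bp and 24.2% with the stronger peaks, and with own summits 24.2% in replicate 1 and 13.0% in replicate 2. The Motif 1 share, 9.59%, was 7.58% in replicate 1 and 5.80% in replicate 2. The median summit position stayed upstream in every alternative run, between -52.5 and -19 bp. No paired analysis was possible because there is 1 group. The number of reads is unknown, so a gene without a peak is not shown to be unbound, and 2 replicates give no interval for a single gene's signal.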

Other observations

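Among all 8192 different 7-letter words (each counted with its reverse complement) within 50 bp of the summits, a word outside the fixed motifs stood out by its share and was chosen after its counts were seen. GCAGCCA lay at 12 of 73 member summits (16.4%), against 58 of 3150 other summits (1.84%). The 12 genes were RpL4, RpL24, RpL27A, RpL28, RpL31, RpL35A, RpS6, RpS18, RpS19a, RpS21, RpS27 and RpS28b, and their median signal was 279. The word stood at a median of 15 bp upstream of the TSS (-15, range -78 to 37), and 1 of the 12 summits also held a DRE. AAAAGAA, whose complement TTCTTTT overlaps the TCT core, was at 16 member summits (21.9%), against 4.57% of the others. ATCGATA, which is part of the DRE, was at 21 (28.8%), against 9.90%. ACTATCG was at 16 (21.9%), against 5.84%, and CTATCGA at 17 (23.3%), against 7.30%. Both share the letters TATCG with the DRE but are not contained in it. No test was made on these words, since they were picked from the same summits.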
